A study of Mus musculus with 2 samples.

Results

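*H19*Δ1 is an androgenetic haploid embryonic stem cell (AG-haESC) line, and its genome was compared with that of AGH-OG-3, the AG-haESC line it was made from, on 1 comparative genomic hybridization (CGH) array. That array is 1 of 2 in the series, and the other holds the sister line *H19*Δ2 against the same reference. *H19*Δ1 carried a CRISPR-Cas9 assisted deletion of the *H19* transcription unit and its imprinting control region, a *loxP*-flanked *PGK-neo* cassette in their place, and the *Oct4-eGFP* transgene of AGH-OG-3. It goes back to a single colony that was passaged and sorted repeatedly for haploid cells. AGH-OG-3 carried the transgene without the deletion, and the labels give both as haploid. *H19*Δ1 had a C57BL/6 background, and the cells grew in serum with LIF and the inhibitors CHIR99021 and PD0325901, and were plated for a short time to remove feeder cells before the DNA was taken. The passage at which this was done is not given in the sources used here.

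In CGH, DNA of the line and of the reference are labelled with different dyes and compete for the same probes, so the ratio of the dyes at a probe measures copies in the line relative to the reference. Here Cy5 marked *H19*Δ1 and Cy3 marked AGH-OG-3. All ratios are log2(Cy5/Cy3) set to 0 at the median autosomal probe. An AG-haESC holds 1 set of chromosomes, from a sperm, and has no second allele to cover a loss. With 1 copy in the reference, 2 copies in every cell of the line give a ratio of 2, a log2 ratio of 1, and loss of the only copy gives a ratio of 0. A ratio from bulk DNA cannot tell a change in some of the cells from a smaller change in all of them, and a lower ratio cannot be told apart from more copies in the reference by the ratio alone. There was neither a replicate nor a dye swap. Errors are therefore SDs over the probes of a region, which are not replicates, and no difference was tested.

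The array measured 161442 autosomal probes with a median spacing of 10.8 kb, and 99.9% of its spots were well above background in each dye. A single probe had a noise of 0.12 on the log2 scale, estimated from neighbouring probes. Both arrays lay on 1 slide and were read in 1 scan.

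The targeted locus was looked at first. *H19* is an imprinted long non-coding RNA gene that is silent on the paternal chromosome, and *Igf2* next to it encodes a fetal growth factor. In RefSeq (GRCm38.p6), *Nctc1* and *Mrpl23* lie on one side of *H19* and *Igf2* and *Ins2* on the other, and *Mir675*, a microRNA cut from the *H19* transcript, lies within *H19*. Below are the oligos of the guides used to cut on either side of the locus, with the bases that pair with the genome in capitals and the cloning bases in lower case, and the mature products of *Mir675* from RefSeq, with the seed in capitals. The microRNAs are shown because they belong to the transcript that *H19*Δ1 was designed to lack.
sgRNA-4: caccgACCACTGCAGGCATCGACGT
sgRNA-7: caccGTCCCTCTCACATCCTGCTC
mmu-miR-675-5p: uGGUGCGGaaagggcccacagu
mmu-miR-675-3p: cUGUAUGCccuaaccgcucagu

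On chromosome 7 of mm9, the build of the array design, 2 neighbouring probes had a log2 ratio below -2 on both arrays and were taken as the locus, since the probes carry no gene names. Their level is therefore a description and no independent check of the label. At the first, from 149761403 to 149761462, the Cy3 signal of AGH-OG-3 was 2507 and the Cy5 signal of *H19*Δ1 was 198, a log2 ratio of -3.67, with -3.70 in *H19*Δ2. The *H19*Δ1 signal there was 7.83% of the reference. At the second, from 149768746 to 149768805, Cy3 was 211 and Cy5 was 15.4, which was not well above background. Against the lowest Cy5 well above background on the array, *H19*Δ1 was at least 3.76-fold lower there. The depth depends on the background correction: the mean of the 2 probes, of which the second has no more than a bound, was -3.73 as computed here and -1.89 with normexp and an offset of 50. The 12 probes beside them, 6 on each side, lay between -0.22 and 0.21 in *H19*Δ1. Within 1 Mb on either side, 171 probes had a median of 0.03 and ranged from -0.29 to 0.39. The loss was therefore between 7.40 and 27.8 kb long, and no probe elsewhere in that stretch was below -0.29.

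**Figure D1:**
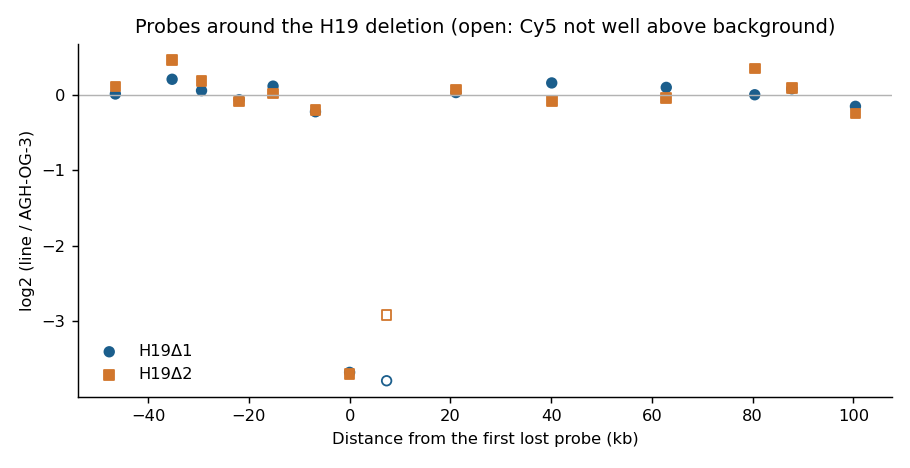
Each point is a probe, by its distance in kb from the first lost probe of chromosome 7 (x axis) and its log2 ratio to AGH-OG-3 (y axis), for *H19*Δ1 (circles) and *H19*Δ2 (squares). Open symbols mark Cy5 not well above background; both lines are low at the same 2 probes, and the 12 others lie between -0.22 and 0.21 in *H19*Δ1.

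No autosome of *H19*Δ1 was gained or lost as a whole relative to AGH-OG-3. A change that AGH-OG-3 shares would not show in the ratio. Nor would a change of ploidy, as the ratios are set to 0 at the autosomal median. The medians of the 19 autosomes lay between -0.02 on chromosome 3 and 0.01 on chromosome 11, with an SD of 0.0092 among them. Chromosomes 8 and 11, often gained in cultured mouse ES cells, had medians of 0.0031 and 0.011. With the segments described next left out, the medians of 492 windows of 5 Mb all lay within 0.1 of 0, and 486 of them within 0.05. The lowest was -0.08, on chromosome 2 from 155005751, and the highest 0.05, on chromosome 17 from 90053550. On chromosome 13, 3 of the other windows past 0.05 adjoined each other, at -0.07, -0.06 and -0.06, with 0.02, 0.00 and -0.01 in *H19*Δ2. They lay in a segment of 1044 probes from 104336943 to 120283183, 15.9 Mb long and so longer than all those described next together, with a mean of -0.07 ± 0.12 in *H19*Δ1 and 0.01 ± 0.14 in *H19*Δ2. A shift of this size is smaller than the noise of a probe and rests on their number. Chromosome X, which is no autosome, stood apart with a median of -0.31, against -0.19 in *H19*Δ2.

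**Figure D2:**
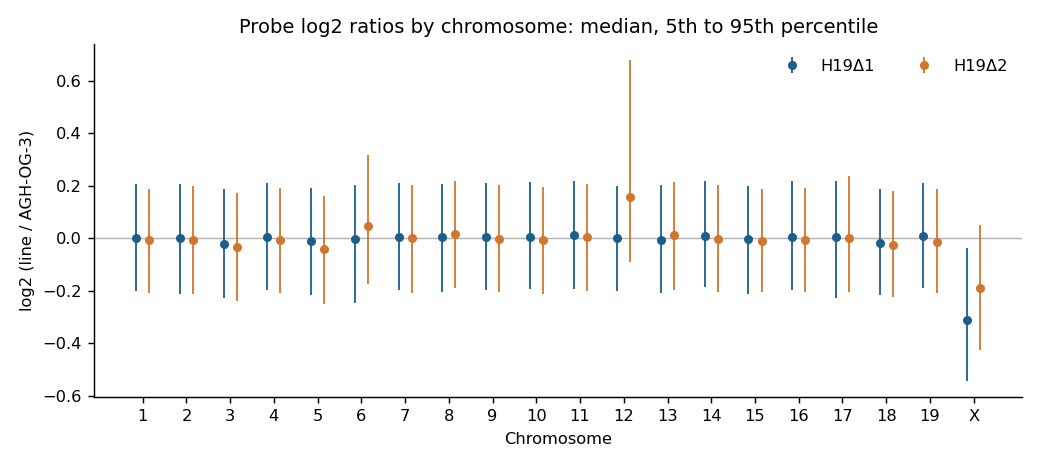
Points are the median log2 ratio to AGH-OG-3 of the probes of each chromosome (x axis) for *H19*Δ1 and *H19*Δ2, and bars run from the 5th to the 95th percentile of the probes. The 19 autosomes of *H19*Δ1 sit between -0.02 and 0.01 and its chromosome X at -0.31.

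Segmentation of the array then gave 10 autosomal gains and losses, 5 of each, that held 5 or more probes and had a mean at least 0.2 away from 0. The balance depended on the setting, with 5 gains and 13 losses when each segment needed 10 probes, and 4 gains and 2 losses at a limit of 0.5. A single probe below -2 can bring the mean of 10 probes past -0.2. Whether the added losses rest on such probes was not tested. The 10 segments lay on 7 of the 19 autosomes and held 651 probes, which is 0.403% of the autosomal probes. They added up to 8.54 Mb, 1.14 Mb above the reference and 7.40 Mb below it. Gain and loss are used here for the direction of the ratio alone, whichever of line and reference differs in copies. The segments were chosen by the ratios given below, so these values describe them and test nothing. Each segment is given by its mm9 position. Which genes it holds was not analysed here, because the probes have no gene names and the RefSeq table at hand is on another build.

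**Figure D3:**
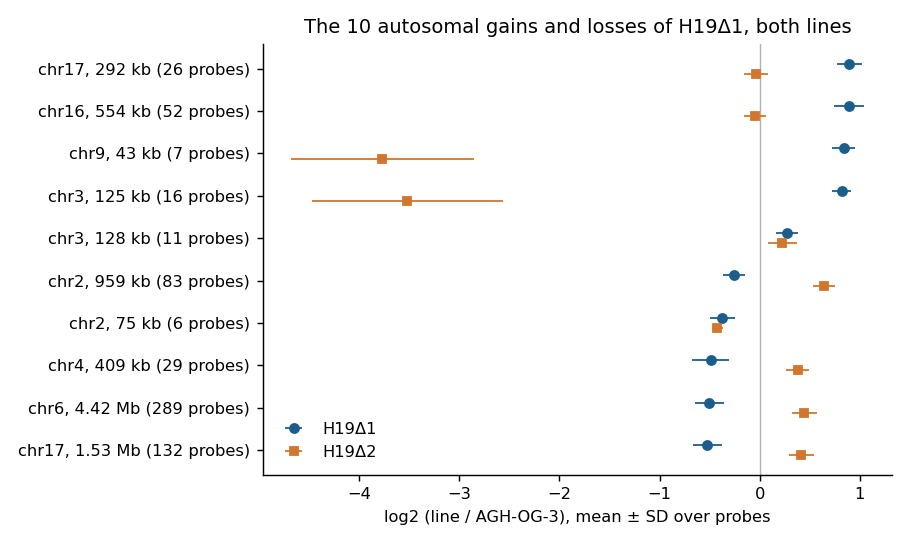
Mean log2 ratio to AGH-OG-3 (x axis) of the 10 autosomal gains and losses of *H19*Δ1, in *H19*Δ1 (circles) and, over the same probes, in *H19*Δ2 (squares); bars are SDs over probes. In *H19*Δ1, 4 segments sit between 0.82 and 0.90 and 3 between -0.52 and -0.49; the *H19*Δ2 values below -3 are measured means that include probes with Cy5 not well above background.

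The strongest gains were 4 segments at nearly the same level. The segment of 52 probes on chromosome 16 from 59445252 to 59999697, 554 kb long, had a mean log2 ratio of 0.89 ± 0.15, or 1.86-fold. On chromosome 17 from 71112826 to 71404932, 26 probes over 292 kb had 0.90 ± 0.12, also 1.86-fold. On chromosome 3 from 136446249 to 136571422, 16 probes over 125 kb had 0.82 ± 0.10, or 1.77-fold. On chromosome 9 from 100658274 to 100701368, 7 probes over 43.1 kb had 0.84 ± 0.12, or 1.79-fold. The 4 means averaged 0.86 and differed from each other by less than the SD over probes of any of them, and each lay below the log2 ratio of 1 that 2 copies against 1 would give.

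Every probe of these 4 gains was raised. All 101 had a log2 ratio of 0.5 or more, which 165 of all autosomal probes had, or 0.102%, these 101 included. With segments chosen for high ratios and means so far above 0.5, this count adds nothing to the means. The lowest probe was at 0.50 in the segment of chromosome 16, 0.66 in that of chromosome 17, 0.63 in that of chromosome 3 and 0.72 in that of chromosome 9. The highest was 1.16, 1.26, 1.07 and 1.04 in the same order. Divided in 3 parts of equal probe number, the gain of chromosome 16 had 0.91, 0.86 and 0.90, that of chromosome 17 had 0.88, 0.87 and 0.95, and that of chromosome 3 had 0.87, 0.80 and 0.79, so no part of a segment carried its mean. The 7 probes of chromosome 9 had, in order, 0.89, 0.75, 0.72, 0.76, 0.79, 0.93 and 1.04.

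The fifth gain was much weaker. It held 11 probes on chromosome 3 from 105936580 to 106064846, 128 kb, with a mean of 0.27 ± 0.11, or 1.21-fold. Its probes ranged from 0.07 to 0.46, so all were above 0 and none reached 0.5. In *H19*Δ2 the same probes had a similar mean, 0.23 ± 0.14, and since both arrays share the reference DNA and the dyes, the line, the reference and the dye cannot be told apart there.

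Of the 5 losses, 3 lay at one level. The longest segment of all was on chromosome 6 from 55782881 to 60204117, where 289 probes over 4.42 Mb had a mean of -0.50 ± 0.14, or 70.6% of the reference. On chromosome 17 from 65493402 to 67027256, 132 probes over 1.53 Mb had -0.52 ± 0.14, or 69.6%. On chromosome 4 from 82064724 to 82474141, 29 probes over 409 kb had -0.49 ± 0.19, or 71.2%. These means differed by less than the spread of the probes.

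The level was held along each of these segments. In 3 parts, chromosome 6 had -0.51, -0.50 and -0.49, chromosome 17 had -0.55, -0.52 and -0.50, and chromosome 4 had -0.49, -0.51 and -0.46. Of the 450 probes, 448 were below 0, the other 2 being on chromosome 6. At -0.5 or less were 158 of 289 on chromosome 6, 77 of 132 on chromosome 17 and 15 of 29 on chromosome 4, against 0.208% of all autosomal probes. With means so near -0.5, these counts add nothing to the means. The probes ranged from -1.11 to 0.04 on chromosome 6, from -0.84 to -0.08 on chromosome 17 and from -0.80 to -0.05 on chromosome 4, whose SD was the highest of the 10 segments. Cy5 was well above background at all but 1 of them.

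Both other losses were on chromosome 2 and shallower. From 112290454 to 113249742, 83 probes over 959 kb had a mean of -0.26 ± 0.11, or 83.7% of the reference. All 83 were below 0 and the lowest was -0.45. Its 3 parts had -0.27, -0.24 and -0.26. From 168582142 to 168657639, 6 probes over 75.5 kb had -0.37 ± 0.12, or 77.3%, with -0.39, -0.35, -0.19, -0.48, -0.30 and -0.53 in order. In *H19*Δ2 these 6 were also low, with a mean of -0.42 ± 0.05, so line, reference and dye cannot be told apart there.

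**Figure D4:**
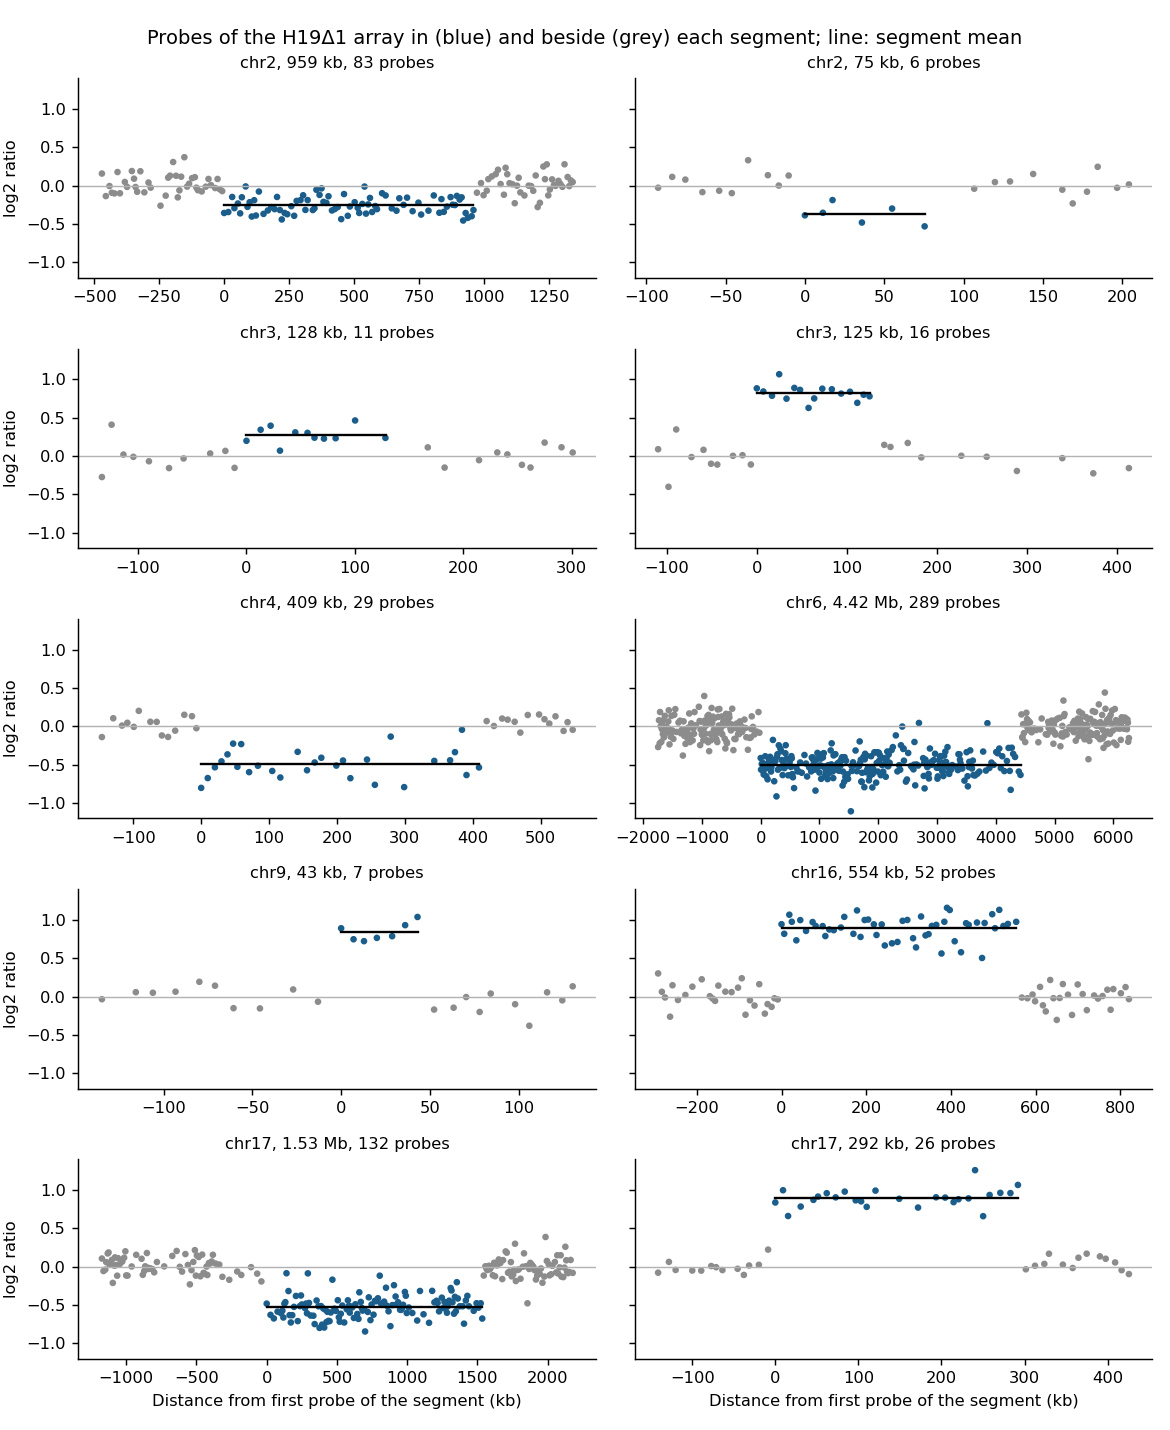
Probe log2 ratios to AGH-OG-3 on the *H19*Δ1 array (y axis) by distance in kb from the first probe of each segment (x axis), for the 10 gains and losses. Probes inside a segment are blue, those beside it grey, and the black line is the segment mean; 10 probes on either side average between -0.08 and 0.07.

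Outside the segments the ratio returned to near 0. The 10 probes to the left of each segment had means between -0.06 and 0.05 and the 10 to the right between -0.08 and 0.07. On chromosome 6 the first probe inside had -0.41 and its neighbour outside -0.08, and at the far end the step was from -0.63 to 0.15. On chromosome 16 it was from -0.04 to 0.94 at the first border and from 0.97 to -0.01 at the last. The far border of the weak gain of chromosome 3 was not clear, as the step was from 0.24 to 0.11 over 39.0 kb, about the noise of a probe. The gap between the outermost probe inside and the nearest outside was between 6.52 and 39.0 kb. It sets the largest size each segment could have, 4.46 Mb on chromosome 6, 1.58 Mb for the loss of chromosome 17, 577 kb on chromosome 16, 310.2 kb for the gain of chromosome 17, 148 kb for the strong gain of chromosome 3 and 65.4 kb on chromosome 9.

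Since a ratio has 2 sides, the dyes were also read separately, as the median signal of a segment over the median autosomal signal of the same dye. The scale depends on how bright the probes of a segment are. Single autosomal probes outside the segments ran from -1.75 (5th percentile) to 1.63 (95th percentile) in Cy3. The medians of 1813 windows of 1 Mb with at least 50 probes were read at the same percentiles. They ran from -0.34 to 0.32 in Cy3 and from -0.34 to 0.33 in Cy5. The highest window reached 0.67 in Cy3 and 0.71 in Cy5, so higher values also occur outside the segments. These windows can be set beside the 4 segments with more than 50 probes. The Cy3 of AGH-OG-3 lay above the 95th percentile in the losses of chromosomes 6 and 17, at 0.49 and 0.46. It also did in the longer loss of chromosome 2, at 0.40. The Cy5 of *H19*Δ1 lay between the percentiles there, at 0.02, -0.02 and 0.14 in the same order. In the gain of chromosome 16 it was Cy5 that lay above, at 0.72, while Cy3 was at -0.17. The other 6 segments hold 29 probes or fewer, whose medians spread more widely than those of the windows, so their values are given without that range. Cy3 and Cy5 were at 0.48 and 0.05 in the loss of chromosome 4 and at 0.38 and -0.07 in the shorter loss of chromosome 2. Among the gains they were at 0.11 and 0.95 on chromosome 17, -0.33 and 0.57 on chromosome 9, -0.92 and -0.12 in the strong gain of chromosome 3 and 0.54 and 0.78 in the weak one. Set against the *H19*Δ2 array probe by probe, Cy3 had a median difference between -0.03 and 0.03 in each of the 10 segments. Cy3 is the same reference on both arrays, so a value near 0 tells nothing of its copies. The Cy5 difference was -0.95, -0.90, -0.89 and -0.88 at the losses of chromosomes 6, 17 and 4 and the longer of chromosome 2. At the shorter it was 0.03. Among the gains it was 0.91 on chromosome 16, 0.95 on chromosome 17, 4.56 on chromosome 9, and 4.43 and 0.04 on chromosome 3. The part that copies in AGH-OG-3 had in these levels was not tested.

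**Figure D5:**
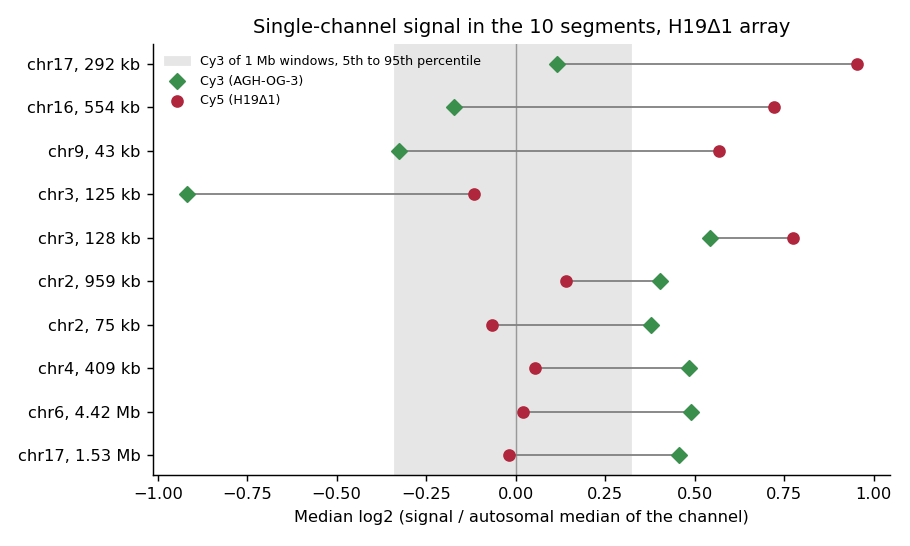
Median signal of each segment over the autosomal median of the same dye (x axis, log2) on the *H19*Δ1 array, for Cy3 (AGH-OG-3, diamonds) and Cy5 (*H19*Δ1, circles), joined by a line whose length follows the log2 ratio. The grey band is the 5th to 95th percentile of Cy3 over 1813 windows of 1 Mb with at least 50 probes. It is to be set beside the 4 segments of more than 50 probes alone, and the highest window was at 0.67. Of these 4 segments, the 3 losses have Cy3 right of the band and Cy5 within it.

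The 10 segments were also read on the *H19*Δ2 array, which shares the AGH-OG-3 reference. The gains of chromosomes 16 and 17 were near 0 there, at -0.05 ± 0.11 and -0.04 ± 0.12. At the strong gain of chromosome 3 and the gain of chromosome 9, *H19*Δ2 had measured means of -3.52 and -3.77, and its Cy5 was not well above background at 8 of the 16 probes and at 4 of the 7. At 4 of the 5 losses it was above 0, with 0.45 ± 0.13 on chromosome 6, 0.42 ± 0.13 on chromosome 17, 0.38 ± 0.11 on chromosome 4 and 0.64 ± 0.11 at the longer loss of chromosome 2. At the shorter loss of chromosome 2 and the weak gain of chromosome 3 it lay on the same side of 0 as *H19*Δ1, at -0.42 and 0.23. With 1 array per line these differences were not tested.

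Just under the limit of 0.2 were 4 segments of at least 5 probes with means between 0.1 and 0.2 in size. On chromosome 2 from 154525583 to 156797232, 222 probes over 2.27 Mb had -0.14 ± 0.13, and on chromosome 17 from 89991616 to 91079050, 84 probes over 1.09 Mb had 0.13 ± 0.13. On chromosome 3 from 68034204, 37 probes had -0.17 ± 0.10, and on chromosome 7 from 17403915, 26 probes had -0.17 ± 0.15. In *H19*Δ2 they had -0.16, -0.03, -0.17 and -0.13 in the same order. Of the described segments, the closest to the limit were the longer loss of chromosome 2 at -0.26 and the weak gain of chromosome 3 at 0.27.

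Shorter segments rested on few probes. A mean at least 0.5 away from 0 over 3 or more probes was seen in 18 autosomal segments, the *H19* locus among them, 7 gains and 11 losses. Of these, 12 held 3 probes, and in 7 of the 12 a single probe was past 0.5. All 3 probes were past it in 1, on chromosome 2 from 146813807 to 146832222, with -1.34, -2.30 and -3.19. Cy5 was not well above background at the last of these, where it was at least 2.12-fold lower by the same limit as at the *H19* locus. In *H19*Δ2 the 3 probes had -0.11, -0.06 and 0.13. On chromosome 11 from 93833988 to 93853612, 3 probes had 0.46, 0.60 and 0.64 in *H19*Δ1 and 0.54, 0.66 and 0.63 in *H19*Δ2. On chromosome 14 from 96748992 to 96766869 they had 0.66, 0.75 and 0.20, with 0.66, 0.83 and 0.54 in *H19*Δ2, and on chromosome 1 from 187896162 to 187918780 they had -0.01, 0.75 and 0.84, with 0.18, 0.67 and 0.75. These 3 gains were thus high on both arrays, where line, reference and dye cannot be told apart. A loss of 4 probes on chromosome 12 from 13437225 to 13472545, below the count at -0.42 ± 0.14, had 0.23 ± 0.06 in *H19*Δ2. The *H19*Δ2 ratio was also raised around them. From 3102541 to 13424733 it had a mean of 0.57 ± 0.15, against -0.01 ± 0.13 in *H19*Δ1. In the window from 10005248 to 14995011 its median was 0.52. At these 4 probes *H19*Δ2 thus lay above 0 but below the level around it.

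Deep losses were rare and mostly single. Of all autosomal probes, 11 had a log2 ratio below -2 in *H19*Δ1, or 0.00681%, and none was above 2, the highest being 1.26. The *H19* locus accounted for 2 of them. Of the 9 others, 2 were the neighbours on chromosome 2 just described and 7 stood alone, with both neighbours between -0.30 and 0.33. In *H19*Δ2 all 9 lay between -0.23 and 0.13. The 5 lowest computed ratios outside the *H19* locus were at 2 probes of chromosome 18, starting at 64429401 with -5.56 and at 68984189 with -4.89, and at probes starting at 114052859 of chromosome 7 with -4.02, at 125525315 of chromosome 8 with -3.75 and at 146832163 of chromosome 2 with -3.19. At all 5 the Cy5 signal was not well above background, so their order has no meaning. Against the lowest Cy5 well above background on the array, *H19*Δ1 was at least 41.2-fold, 17.8-fold, 11.7-fold, 3.03-fold and 2.12-fold lower in that order. How these bounds depend on the background correction was not tested. The 4 others had Cy5 well above background and were measured at 8.59-fold, 8.29-fold, 6.67-fold and 4.94-fold lower, on chromosome 2 at 126751760, chromosome 14 at 116297152, and chromosome 2 at 87582907 and 146821098. The Cy3 signal at 64429401 of chromosome 18 was 2313 on this array and 2365 on the *H19*Δ2 array. At the probe of chromosome 14, Cy3 stood out instead, at 2103 on this array against 261 on the other, while Cy5 was 256 and 235.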

How the data were processed

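The authors hybridized DNA to SurePrint G3 Mouse CGH arrays and deposited Agilent Feature Extraction output, version 11.5.1.1 per the file headers and 10.10 per the labels. The deposited processed intensities are background-subtracted, spatially detrended and scaled between dyes by a linear factor. The deposited log10 ratio is Cy5 over Cy3, and the series matrix repeats it. Median spot and local background intensities were used for the normexp alternative alone.

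The processed intensities gave log2(Cy5/Cy3) per spot. No loess or quantile step was used, since it could flatten true shifts. Control spots and the 151 spots flagged as outliers were dropped, spots of a probe were averaged, and 0.011, the autosomal median, was subtracted. Chromosomes 1 to 19 and X were segmented by least squares with at least 3 probes per segment. The penalty per segment was the product of 2, the variance of the noise and the natural logarithm of how many probes entered. The method was also run on simulated data, the probe ratios less their segment means in permuted order, with segments planted in them. Permuting removes any likeness between neighbouring probes, so that run cannot show that a weak segment is real. Where Cy5 was not well above background, the higher of its own signal and 56.6, the lowest Cy5 well above background, was set against Cy3 to give a bound. Groups came from the labels, and the number of arrays limits the precision.

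The segments, thresholds and lists were chosen with earlier results of these data known. The rule was to describe every autosomal segment of at least 5 probes whose mean was 0.2 or more from 0, the 5 lowest probes below -2, and shorter segments by counts, and to name genes only through an annotation of the array's build. No such annotation was used here, so the imprinting, pluripotency and growth control gene lists could not be applied. The tools were limma 3.58.1 in R 4.3.3 and, in Python 3.11.15, numba 0.67.0, scipy 1.17.1, pandas 2.3.3 and numpy 2.4.6.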

Additional observations from a re-analysis of the deposited data

Results flagged for a closer look

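At 6 of the 10 segments the lines lay on opposite sides of the reference, each by 0.2 or more. *H19*Δ1 had -0.26 at the longer loss of chromosome 2, -0.49 at that of chromosome 4, -0.50 over the 4.42 Mb of chromosome 6 and -0.52 over the 1.53 Mb of chromosome 17, where *H19*Δ2 was above 0. It had 0.82 at the strong gain of chromosome 3 and 0.84 at the gain of chromosome 9, where *H19*Δ2 was below 0. With 1 array per line and a shared reference, the difference was not tested.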

How the results depend on the processing

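Over 16 results, 142 alternative values were computed, and 135 stayed within the limits set for them. These were the spread over probes, the spread of autosome medians, the 95% Wilson interval of the share of probes or 1.5 times the count. Some alternatives could hardly differ. The deposited log ratio and the series matrix hold the ratio used here, and there were no saturated spots to drop. The spread over probes is also wide for a mean of many probes. The Wilson interval treats probes as independent, so it measures no variation of the line. The tally of 135 is therefore no measure of robustness. No value changed sign, and the log2 ratios of all 10 segments stayed within the spread under every alternative. These ratios were taken over the same probes each time, so they do not show that a segment is found again. With a penalty factor of 4 or of 8 in place of 2, 8 of the 10 were found (4 gains, 4 losses). Normexp gave 11 segments (4 gains, 7 losses), which met 9 of the 10. The count of 10 went to 6 at a threshold of 0.5 (4 gains, 2 losses) and to 18 with at least 10 probes per segment (5 gains, 13 losses), which met 9 of the 10, and the count of 18 stronger segments went to 10 with at least 10 probes. With normexp background correction and its offset of 50, the mean of the *H19* locus, 1 of whose 2 probes has Cy5 not well above background and so no more than a bound, went from -3.73 to -1.89, and the share of autosomal probes past 0.5 in size from 0.310% to 0.512%. Without centring, the lowest autosome median went to -0.012 and the highest to 0.022. A penalty from the probes of each chromosome, chosen after seeing the data, gave 12 segments: it added 5 probes on chromosome 5 from 81820507, at -0.37 in *H19*Δ1 and 0.62 in *H19*Δ2, and 5 on chromosome 11 from 3030764, at 0.27 and 0.31. No spot was saturated. No paired analysis was possible because only 1 array was made of either line, and for the same reason no replicate could be left out. The causes of these changes were not tested. Signal over background limits 6 of the 11 probes below -2 to bounds.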
